A study of Mus musculus with 9 samples.

Results

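Transporters that carry amino acids across the hepatocyte's plasma membrane set how much of the amino acids arriving from gut and muscle reaches the urea cycle, gluconeogenesis and protein synthesis. The 7 genes described here were chosen by name: Slc7a2, Slc38a2, Slc38a3, Slc38a4, Slc3a2, Slc43a1 and Slc16a10, each found as 1 of the 55401 genes of the deposited count table. Slc7a2 was picked because its counts were high in STAM liver and back near the chow level with Atglistatin. Its values in all 3 comparisons are therefore a description with no test. The other 6 were listed for their role, with earlier results of these data known, and were tested among all genes.

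Livers of 9 male mice, 3 in each of 3 groups, gave RNA from the left lobe, and QuantSeq 3' mRNA libraries counted transcripts from their polyadenylated ends. STAM + Atglistatin mice (replicates 4, 5 and 6) and STAM mice (replicates 1, 2 and 3) both had 200 µg of streptozotocin, a toxin of the insulin-making beta cells, under the skin at 2 days of age, and both were kept on a high-fat diet (HFD) for 4 weeks, starting when they were 4 weeks old. In the STAM + Atglistatin group that diet also contained Atglistatin, an inhibitor of adipose triglyceride lipase. Chow mice (replicates 7, 8 and 9) had neither streptozotocin nor Atglistatin and ate chow. Streptozotocin and the high-fat diet were thus given together and cannot be told apart, and no group had Atglistatin alone. Groups follow the sample titles and the design text, since a separate treatment label of the STAM and chow samples contradicts both. Neither the strain nor any litter or cage is stated in the labels, so whether the groups also differed in these is unknown. The p-values set differences between group means against the spread between mice within groups.

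Liver takes up the cationic amino acids arginine, lysine and ornithine slowly, through low-affinity carriers of which the Slc7a2 product is the main form. The Slc38 family couples the uptake of small neutral amino acids to sodium: its system A members (Slc38a2 and Slc38a4) carry alanine and serine, and its system N member Slc38a3 carries glutamine, histidine and asparagine in either direction. Slc3a2 encodes the heavy chain that brings several exchangers to the surface, while Slc43a1 and Slc16a10 encode uniporters that let branched-chain and aromatic amino acids pass down their gradients.

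Libraries held 7380365 to 9886129 counts, and all 7 transporters were among the 12660 genes that passed the filter on low counts. Levels are given in CPM, counts scaled to a common TMM-adjusted library size, and group means with their SD over 3 mice (n = 3). Differences are log2 fold changes ± SE by the edgeR quasi-likelihood method, and a gene passed where its p, adjusted over all 12660 genes by Benjamini and Hochberg, was under 0.05. The median log2 fold change over all genes was 0 in each comparison. Of 10 defining hepatocyte genes, 9 were matched by symbol and all 9 were detected in every group, and their summed level was 81500 to 85600 CPM in STAM + Atglistatin, 60400 to 69800 CPM in STAM and 105000 to 117000 CPM in chow libraries. In bulk liver, fewer cells of a type and less RNA per cell cannot be told apart. Among chow libraries, replicate 7 differed from replicates 8 and 9, with summed recruited-macrophage markers (10 of 10 detected) at 98.6 CPM, against 35.8 and 44.3 CPM, and proliferation markers (8 of 8) at 98.0 CPM, against 37.5 CPM at most. Its stellate cell and fibroblast markers were at 852 CPM, against 479 and 513 CPM, and its cholangiocyte markers at 68.5 CPM, against 42.9 and 44.8 CPM. Its pericentral hepatocyte markers were lower, at 3790 CPM against 7200 and 6190 CPM.

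Slc7a2, the cationic amino acid carrier, had CPM of 174, 187 and 178 in STAM + Atglistatin livers, 332, 395 and 292 in STAM livers, and 177, 168 and 175 in chow livers. Every STAM library lay above every library of both other groups, while the STAM + Atglistatin and chow libraries overlapped. The raw counts behind these values were 1730, 1806 and 1646 with Atglistatin, 2998, 3343 and 2431 in STAM, and 1716, 1396 and 1186 in chow. The group means were 180 ± 6.91 CPM in STAM + Atglistatin, 339 ± 51.8 CPM in STAM and 173 ± 4.49 CPM in chow, so the STAM mean was 1.96 times the chow mean and the STAM + Atglistatin mean was 1.04 times the chow mean. The difference to the chow mean was 6.18 CPM with Atglistatin and 166 CPM in STAM. The spread between mice was widest in STAM, with a coefficient of variation of 15.2%, against 3.85% in STAM + Atglistatin and 2.59% in chow.

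As log2 fold changes, Slc7a2 had 0.97 ± 0.12 in STAM against chow, -0.92 ± 0.12 in STAM + Atglistatin against STAM, and 0.05 ± 0.12 in STAM + Atglistatin against chow. Slc7a2 was picked for these differences, so they and their SE carry no test. Of all genes tested, 361 of 12660 (2.85%) likewise had every STAM library above all 6 others. Over 15 other ways of scaling, filtering, testing or leaving out a library, the Slc7a2 value ranged over 0.85 to 1.07 in STAM against chow and over -1.02 to -0.80 in STAM + Atglistatin against STAM. These refits use the libraries that picked Slc7a2, so the ranges carry no test either. The libraries with most Slc7a2 were those with the lowest summed hepatocyte markers. They also had the highest share of mitochondrial counts, 8.64 to 9.73% in STAM + Atglistatin, 11 to 11.6% in STAM and 7.32 to 8.78% in chow libraries. The part of either in the difference was not tested. Macrophages also make Slc7a2 when activated. Kupffer cell markers (10 of 10 detected in each group) summed to 471 to 647 CPM in STAM + Atglistatin, 499 to 594 CPM in STAM and 429 to 582 CPM in chow libraries, and recruited-macrophage markers to 65.5 to 70.5, 64.7 to 80.7 and 35.8 to 98.6 CPM in the same order of groups. Both lists overlapped between all 3 groups. For recruited-macrophage markers the overlap with chow came only from chow replicate 7, at 98.6 CPM. Chow replicates 8 and 9, at 35.8 and 44.3 CPM, lay below every STAM and STAM + Atglistatin library. The part of macrophages in the Slc7a2 values was not tested.

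**Figure D1:**
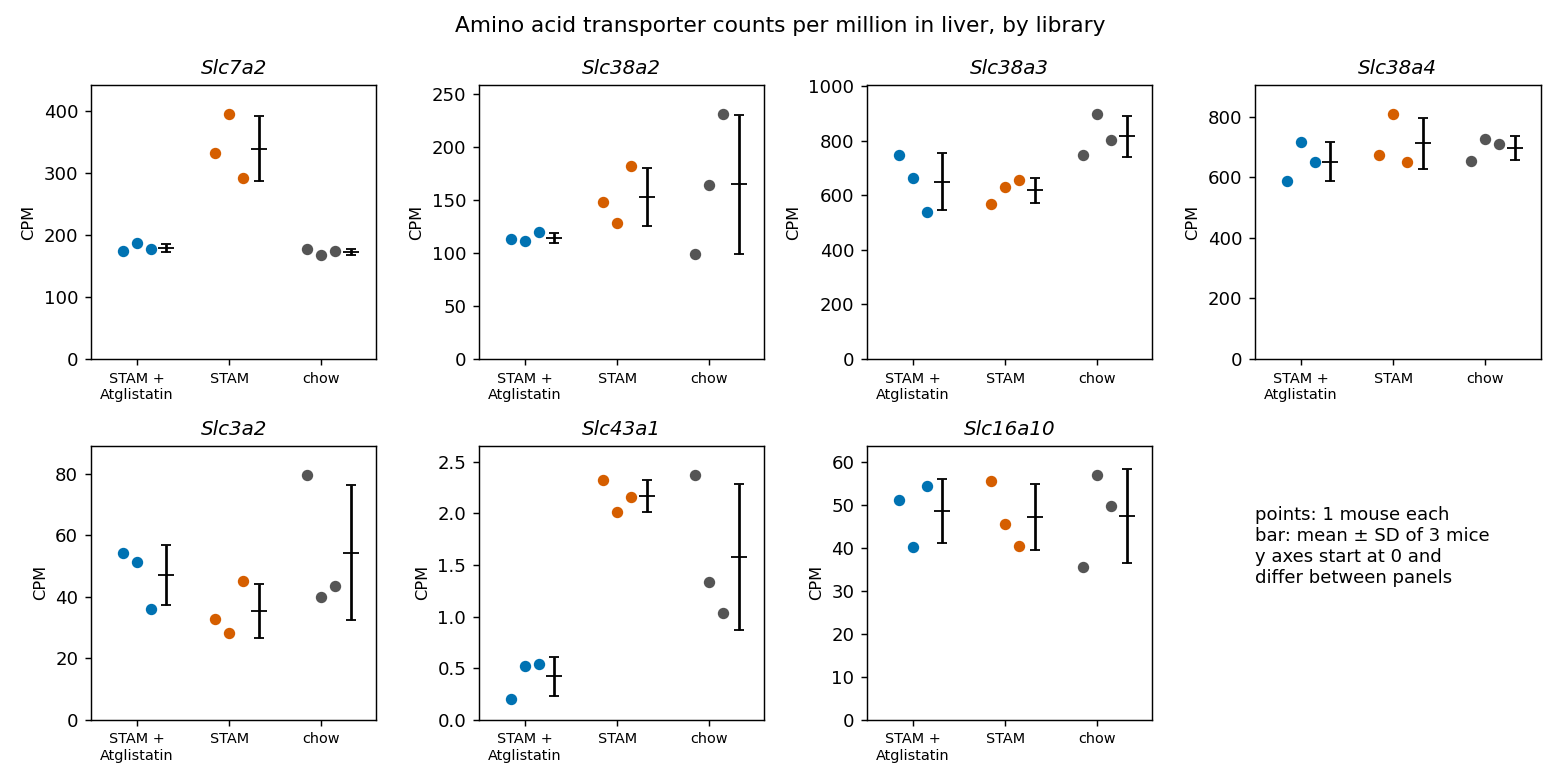
CPM, scaled counts (y axis, from 0, with its own scale in each panel) of the 7 transporters in STAM + Atglistatin, STAM and chow livers. Points are single mice, and the bar beside them is the mean ± SD of 3. For Slc7a2 the 3 STAM mice lie at 292 to 395 CPM, above all others at 168 to 187 CPM; for Slc43a1 the 3 STAM + Atglistatin mice lie at 0.201 to 0.541 CPM, below all others.

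Slc7a2 (ENSMUSG00000031596) lies on chromosome 8 of GRCm38 (40862396 to 40922308, plus strand), with 5 protein-coding transcripts in GENCODE M21 that end at 5 different positions. The gene is known to give splice forms of low and high affinity for arginine, and counts per gene do not separate them. A long noncoding RNA, Gm26584, overlaps it on the other strand, and no source states whether strand was used in the counting. No gene of that symbol was found among the deposited counts, so its own level could not be read.

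The genes most like Slc7a2 over the 9 libraries, by Pearson correlation of log2 CPM among 7793 genes with a mean log2 CPM of at least 3, were Ggact (r = 0.948), Cfd (0.944), Fam3c (0.942), Ppcdc (0.938) and Ppm1k (0.938). With any 1 library left out, the r of these 5 stayed at 0.890 or above. Their order rests largely on the STAM libraries, which were high for each, so these r describe the same contrast that picked Slc7a2. Ppm1k, the phosphatase that activates branched-chain ketoacid dehydrogenase, had mean CPM of 96.3 in STAM + Atglistatin, 183 in STAM and 89.8 in chow. Ggact, an enzyme that cleaves gamma-glutamyl crosslinks, had 99.6, 130 and 102 CPM in the same groups. Cfd, the complement factor adipsin, moved far more, at 5.44 CPM in STAM + Atglistatin, 149 CPM in STAM and 4.51 CPM in chow.

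None of the other 6 transporters passed in any of the 3 comparisons. In STAM against chow, 0 of 6 passed with edgeR, where 3.94% of all genes did (1.95% higher and 1.99% lower); 2 were lower at an unadjusted p under 0.05, 0 passed with DESeq2 and 1, Slc38a3, with limma-voom. With Atglistatin against STAM alone, 0 of 6 passed with edgeR, where 1.79% of all genes did (1.04% higher and 0.742% lower); 1 was lower at an unadjusted p under 0.05, and 0 passed with DESeq2 or limma-voom. Between STAM + Atglistatin and chow, 0 of 6 passed with edgeR, where 4.08% of all genes did (2.10% higher and 1.97% lower); 3 were lower at an unadjusted p under 0.05, and 0 passed with DESeq2 or limma-voom. Given these shares, 0 of 6 is an ordinary count. At an unadjusted p under 0.05 stood 1841, 1285 and 1878 of all 12660 genes in the 3 comparisons. By library values, 1 of the 6 was lower in every STAM than in every chow library (Slc38a3), where 20.7% of all genes did not overlap (10.6% higher and 10.2% lower). With Atglistatin, 2 of the 6 lay below every STAM library (Slc38a2 and Slc43a1), where 17.0% of all genes did not overlap (8.58% higher and 8.45% lower), and 1 of the 6 lay below every chow library (Slc43a1), where 18.6% did not (9.60% higher and 9.03% lower). Slc43a1 was kept by the low-count filter only through the STAM libraries, where its counts were high. The median log2 fold changes of the 6 were -0.06, -0.04 and -0.27 in these 3 comparisons, beside 0 for all genes.

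**Figure D2:**
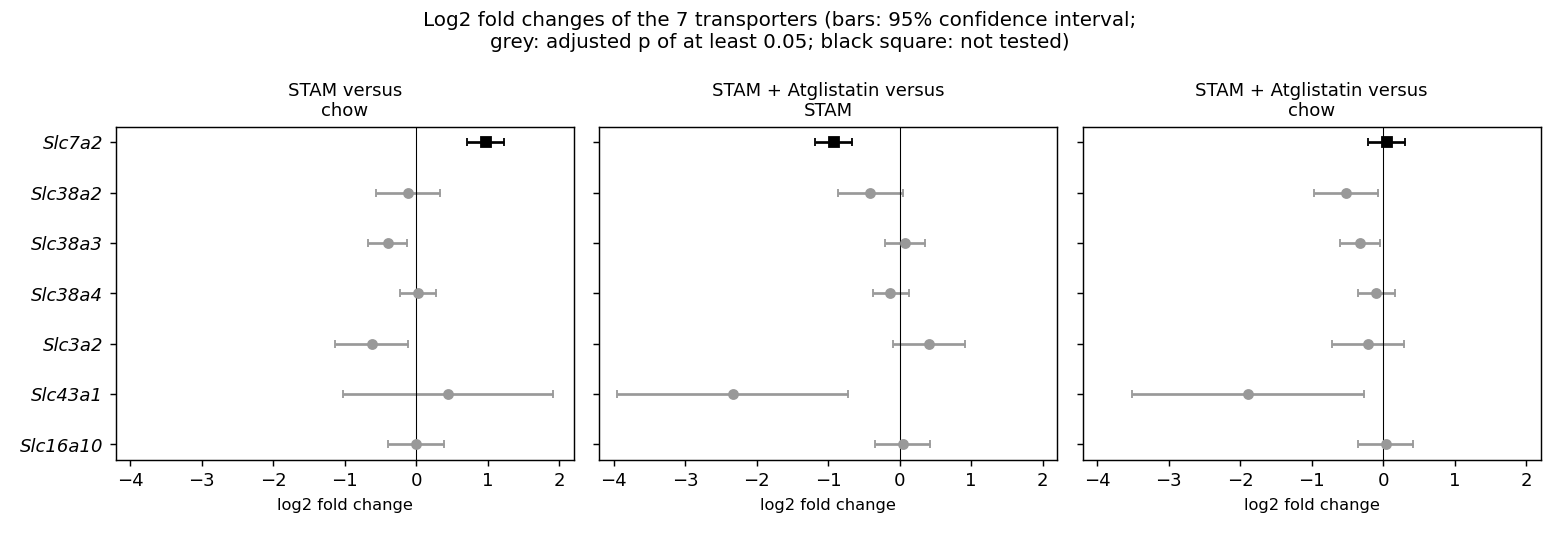
Log2 fold changes (x axis) of the 7 transporters in each comparison, with 95% confidence intervals from edgeR's fit to all 9 libraries. Slc7a2 (black squares, not tested) lies at 0.97, -0.92 and 0.05. It was picked for these values, so its intervals are no test. The other 6 (grey circles, adjusted p of at least 0.05) include Slc43a1 with the widest intervals, -3.95 to -0.72 in STAM + Atglistatin against STAM.

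Among the sodium-coupled Slc38 carriers, the system N gene Slc38a3 had the smallest adjusted p in STAM against chow. Its CPM were 747, 665 and 540 in STAM + Atglistatin, 568, 629 and 657 in STAM and 746, 897 and 804 in chow livers. All 3 STAM libraries lay below all chow libraries, and the STAM + Atglistatin libraries overlapped both. The log2 fold change in STAM against chow was -0.40 ± 0.13 (95% confidence interval -0.67 to -0.13, edgeR adjusted p = 0.111, 0.0147 to 0.385 over 15 alternatives). It passed with limma-voom (adjusted p = 0.0147) and in edgeR without chow replicate 7 (-0.46 ± 0.13, adjusted p = 0.0390). In STAM + Atglistatin against STAM it was 0.07 ± 0.13 (interval -0.20 to 0.35, edgeR adjusted p = 0.922), and in STAM + Atglistatin against chow -0.33 ± 0.13 (edgeR adjusted p = 0.226). The gene lies on chromosome 9 (107650634 to 107669530, minus strand), and the genes most like it were the carboxylesterase gene Ces2a (r = 0.969), Adi1 (0.958) of the methionine salvage route, and Sirt7 (0.941).

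Slc38a4, the system A carrier that is largely a liver gene, had similar levels in all groups. It had CPM of 588, 715 and 652 in STAM + Atglistatin, 675, 808 and 652 in STAM and 653, 727 and 709 in chow livers, with all groups overlapping. Its log2 fold changes were 0.03 ± 0.12 in STAM against chow (95% confidence interval -0.22 to 0.28), -0.13 ± 0.12 in STAM + Atglistatin against STAM (-0.38 to 0.13) and -0.10 ± 0.12 in STAM + Atglistatin against chow (-0.35 to 0.16), with edgeR adjusted p of 0.949, 0.822 and 0.800. The genes most like it, Cep162 (r = 0.931), Crebl2 (0.918) and Son (0.907), had mean CPM of 8.01, 20.9 and 280 in STAM + Atglistatin, 8.89, 24.7 and 305 in STAM, and 8.50, 24.1 and 297 in chow.

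Slc38a2, the system A carrier that cells raise when amino acids run short, had CPM of 113, 111 and 120 in STAM + Atglistatin, 148, 128 and 182 in STAM and 99.6, 164 and 231 in chow livers. The 3 STAM + Atglistatin libraries lay below all STAM libraries and within the range of the chow libraries, which spread over 39.9% (coefficient of variation). The log2 fold change was -0.41 ± 0.21 in STAM + Atglistatin against STAM (95% confidence interval -0.86 to 0.04, edgeR adjusted p = 0.562), -0.11 ± 0.21 in STAM against chow (-0.56 to 0.33, adjusted p = 0.890) and -0.52 ± 0.21 in STAM + Atglistatin against chow (-0.97 to -0.07, adjusted p = 0.243). The last of these turned on single chow libraries: it was -0.78 ± 0.16 and passed without replicate 7 (edgeR adjusted p = 0.00279), and was -0.20 without replicate 9 (edgeR adjusted p = 0.765). It also passed with no low-count filter (adjusted p = 0.0101). Without chow replicate 9 the sign in STAM against chow turned (0.21, edgeR adjusted p = 0.750). Genes most like it were Anapc11 (r = 0.971), Tedc2 (0.970) and AC118710.1 (0.951).

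Slc38a2 and Slc38a4 are neighbours on chromosome 15 (96687392 to 96699730 and 96994820 to 97055956, both on the minus strand), 295089 bp apart, with Slc38a1 on the other side of Slc38a2 at a distance of 44478 bp. Across the 9 libraries r was 0.23 between Slc38a2 and Slc38a4. Slc38a1, a system A carrier of brain and other tissues, was near the limit of detection, with 2.86 ± 0.822 CPM in STAM + Atglistatin, 2.32 ± 1.35 CPM in STAM and 2.15 ± 0.759 CPM in chow.

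The promoter windows of Slc38a2 and Slc43a1 are shown because these were the tested transporters whose STAM + Atglistatin libraries all lay below the STAM libraries. Both are from RefSeq (GRCm38.p6), 250 bases before to 50 bases after the annotated start, written along the gene. Capitals mark matches to TATAAA, the TATA box letters, and no other searched motif was found in either. Slc38a2 is at chr15:96699679-96699978 (minus strand) and Slc43a1 at chr2:84840073-84840372 (plus strand).
Slc38a2: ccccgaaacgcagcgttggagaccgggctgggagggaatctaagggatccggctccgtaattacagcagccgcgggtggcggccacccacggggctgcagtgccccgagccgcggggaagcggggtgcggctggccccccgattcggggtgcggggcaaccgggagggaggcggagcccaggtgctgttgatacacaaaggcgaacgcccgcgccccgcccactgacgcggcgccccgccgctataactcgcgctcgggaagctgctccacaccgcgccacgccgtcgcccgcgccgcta
Slc43a1: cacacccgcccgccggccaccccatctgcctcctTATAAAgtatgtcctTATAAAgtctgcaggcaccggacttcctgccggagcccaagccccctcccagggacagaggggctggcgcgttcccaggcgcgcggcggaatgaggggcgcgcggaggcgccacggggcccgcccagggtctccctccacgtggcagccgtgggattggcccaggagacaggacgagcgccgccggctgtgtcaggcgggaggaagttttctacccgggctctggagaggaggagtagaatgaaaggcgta

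RefSeq promoter windows were matched for 5 of the 7 genes (Slc38a2, Slc38a4, Slc3a2, Slc43a1 and Slc16a10), 7 windows in all with 3 for Slc38a4. They were searched on both strands for TGATGNAA (the core of amino acid response elements, to which ATF4 binds), TGACGTCA (the cAMP response element), the direct repeat with 1 spacer base read by PPAR with RXR, and the sterol regulatory element of the LDL receptor gene. None of the 7 windows held any of these 4, against 3.97%, 1.79%, 0.0396% and 0.0913% of all 32851 windows of 300 bases. TATAAA was found in 2 of the 7 windows, with 2 matches in that of Slc43a1 at 216 and 201 bases before the start, against 13.6% of all windows. An amino acid response element of Slc38a2 is known from the gene's first intron, which the window does not reach.

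Slc3a2, the heavy chain that partners exchangers such as the Slc7a5 and Slc7a11 products, had CPM of 54.2, 51.1 and 36.0 in STAM + Atglistatin, 32.8, 28.3 and 45.1 in STAM and 79.5, 39.8 and 43.6 in chow livers. Chow replicate 7 was the highest of the 9 libraries and STAM replicate 2 the lowest, and all groups overlapped. The log2 fold change in STAM against chow was -0.62 ± 0.24 (95% confidence interval -1.13 to -0.11, edgeR adjusted p = 0.212), and -0.23 ± 0.21 without chow replicate 7 (edgeR adjusted p = 0.649). It passed with no low-count filter (adjusted p = 0.0144). In STAM + Atglistatin against STAM the value was 0.41 ± 0.24 (-0.10 to 0.92, edgeR adjusted p = 0.628). In STAM + Atglistatin against chow it was -0.21 ± 0.24 (edgeR adjusted p = 0.776), which became 0.18 without chow replicate 7.

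The gene most like Slc3a2 was Hba-a1, an alpha globin gene of red blood cells (r = 0.976 over 9 libraries, 0.960 or above with any 1 left out). Hba-a1 had CPM of 66.3, 61.4 and 33.5 in STAM + Atglistatin, 28.5, 27.6 and 47.3 in STAM and 94.1, 40.7 and 38.3 in chow livers, so that the library highest for Slc3a2 in each group was also the highest for the globin. The part of red cell RNA in the Slc3a2 values was not tested. Fam104a (0.936) followed. The light chains Slc7a5 (1.43 ± 1.04 CPM in STAM + Atglistatin, 1.34 ± 1.14 CPM in STAM, 1.85 ± 2.18 CPM in chow) and Slc7a8 (2.47 ± 0.680, 3.55 ± 1.15 and 4.89 ± 2.03 CPM in the same groups) gave few counts, and neither passed in any comparison.

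Slc43a1, a uniporter of branched-chain amino acids and phenylalanine, had the fewest reads of the 7 and, in both comparisons of STAM + Atglistatin, the largest fold difference among them. Its raw counts were 2, 5 and 5 in STAM + Atglistatin, 21, 17 and 18 in STAM and 23, 11 and 7 in chow livers, or 0.201 to 0.541 CPM, 2.01 to 2.32 CPM and 1.03 to 2.37 CPM. All 3 STAM + Atglistatin libraries lay below every STAM and every chow library. The log2 fold change was -2.33 ± 0.77 in STAM + Atglistatin against STAM (95% confidence interval -3.95 to -0.72, unadjusted p = 0.00722, edgeR adjusted p = 0.196) and -1.89 ± 0.77 in STAM + Atglistatin against chow (-3.51 to -0.27, unadjusted p = 0.0248, edgeR adjusted p = 0.242). Neither passed under any alternative that gave a value (edgeR, DESeq2 or limma-voom adjusted p 0.0706 to 0.512 and 0.157 to 0.485). With all 9 libraries the gene was kept by the low-count filter only through the STAM libraries, where its counts were high. In the fit to STAM + Atglistatin and chow alone it gave no value, which left 14 alternatives there. Its p-values and intervals are thus no support for a difference. In STAM against chow the log2 fold change was 0.44 ± 0.70, with an interval of -1.03 to 1.91.

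The genes most like Slc43a1 were Shtn1 (r = 0.972), Sds (0.961), the serine dehydratase that turns serine into pyruvate, and Slc43a3 (0.953), a purine carrier of the same family. Sds had mean CPM of 112 in STAM + Atglistatin, 216 in STAM and 158 in chow. Slc43a1 lies on chromosome 2 (84838850 to 84863594, plus strand), and similar family members were counted as separate genes by a method that no source states.

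Slc16a10, the uniporter of tyrosine, phenylalanine and tryptophan, had CPM of 51.1, 40.1 and 54.4 in STAM + Atglistatin, 55.5, 45.5 and 40.5 in STAM and 35.6, 56.9 and 49.6 in chow livers. The group means were 48.5 ± 7.47, 47.2 ± 7.65 and 47.4 ± 10.8 CPM, and all groups overlapped. The log2 fold changes were 0.00 ± 0.18 in STAM against chow (95% confidence interval -0.39 to 0.39), 0.04 ± 0.18 in STAM + Atglistatin against STAM (-0.35 to 0.43) and 0.04 ± 0.18 in STAM + Atglistatin against chow (-0.35 to 0.42), with edgeR adjusted p of at least 0.957. The genes most like it were Gclm (r = 0.939), Mrpl20 (0.915) and Chchd3 (0.905).

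The 7 transporters did not move as a block. Of their 21 pairwise correlations over the 9 libraries, the highest was 0.60, between Slc7a2 and Slc43a1, and the lowest were -0.63 between Slc3a2 and Slc16a10 and -0.62 between Slc7a2 and Slc3a2. These r describe 9 libraries in which groups differ, and carry no test.

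The other amino acid carriers of the plasma membrane gave a list of 34, of which 30 had counts and 17 were tested. Beside them, 3.94%, 1.79% and 4.08% of all genes passed in the 3 comparisons in the order given next. In that order 1841, 1285 and 1878 of all 12660 genes stood at an unadjusted p under 0.05. Without chow replicate 7, 724, 332 and 757 of 13078 genes passed. In STAM against chow 1 rose (Slc1a2) and 2 fell (Slc3a1 and Slc6a13), with a median log2 fold change of -0.20. DESeq2 gave 1 higher and 2 lower there, and limma-voom 1 higher and 3 lower. With Atglistatin against STAM alone Slc1a2, Slc3a1 and Slc6a13 passed with edgeR in the opposite direction, 2 higher and 1 lower, with a median of 0.11. The comparisons share the STAM libraries, so the second is no independent count. Between STAM + Atglistatin and chow 0 of 17 passed with edgeR, DESeq2 or limma-voom, and 2 were lower at an unadjusted p under 0.05, with a median of -0.04. Without chow replicate 7, 18 were tested: 0 rose and 2 fell in STAM against chow, 2 rose and 1 fell in STAM + Atglistatin against STAM, and 1 was higher in STAM + Atglistatin against chow, the cystine carrier Slc7a11, from very few counts.

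Slc1a2, a sodium-coupled carrier of glutamate and aspartate in pericentral hepatocytes, had CPM of 107, 99.8 and 136 in STAM + Atglistatin, 225, 164 and 215 in STAM and 85.7, 147 and 132 in chow livers. Like Slc7a2, it was higher in every STAM library than in all others. It rose by 0.73 ± 0.18 in STAM against chow (edgeR adjusted p = 0.0294, 2.77e-05 to 0.163 over 15 alternatives) and its log2 fold change in STAM + Atglistatin against STAM was -0.81 ± 0.18 (edgeR adjusted p = 0.0253, 1.73e-06 to 0.172). The first call was lost without STAM replicate 1 or 3 or chow replicate 7 or 9 (adjusted p 0.0555 to 0.163), and the second without STAM + Atglistatin replicate 4 or 5 or STAM replicate 1 or 3 (0.105 to 0.172).

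Slc3a1, the heavy chain of the cystine and dibasic amino acid exchanger, ran the other way. It had CPM of 14.8, 10.2 and 17.8 in STAM + Atglistatin, 3.10, 4.37 and 5.05 in STAM and 32.4, 19.3 and 16.8 in chow livers. Every STAM library was below all others, and the STAM + Atglistatin libraries overlapped the chow range at its lower end. The log2 fold change was -2.46 ± 0.31 in STAM against chow (edgeR adjusted p = 7.62e-05) and 1.78 ± 0.31 in STAM + Atglistatin against STAM (edgeR adjusted p = 0.00292). Both calls held under all 15 alternatives, with adjusted p up to 0.00149 and up to 0.0341.

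Slc6a13, a carrier of taurine and GABA, had CPM of 275, 246 and 175 in STAM + Atglistatin, 140, 133 and 165 in STAM and 217, 232 and 226 in chow livers. STAM libraries were below both other groups. Its log2 fold change was -0.62 ± 0.15 in STAM against chow (edgeR adjusted p = 0.0222) and 0.67 ± 0.15 in STAM + Atglistatin against STAM (edgeR adjusted p = 0.0244). The first call was lost without STAM replicate 1 or 2 or chow replicate 8 or 9 (adjusted p 0.0646 to 0.129), and the second without STAM + Atglistatin replicate 4 or 5 or STAM replicate 1 or 2 (0.127 to 0.171; ranges over 15 alternatives 0.000522 to 0.129 and 0.000189 to 0.171).

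Slc7a1, the high-affinity cationic carrier that most other tissues use, was near the limit of detection, with 0.757 ± 0.192 CPM in STAM + Atglistatin, 0.815 ± 0.742 CPM in STAM and 2.04 ± 1.24 CPM in chow. Its log2 fold change in STAM against chow was -1.32 ± 0.84 (edgeR adjusted p = 0.529).

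**Figure D3:**
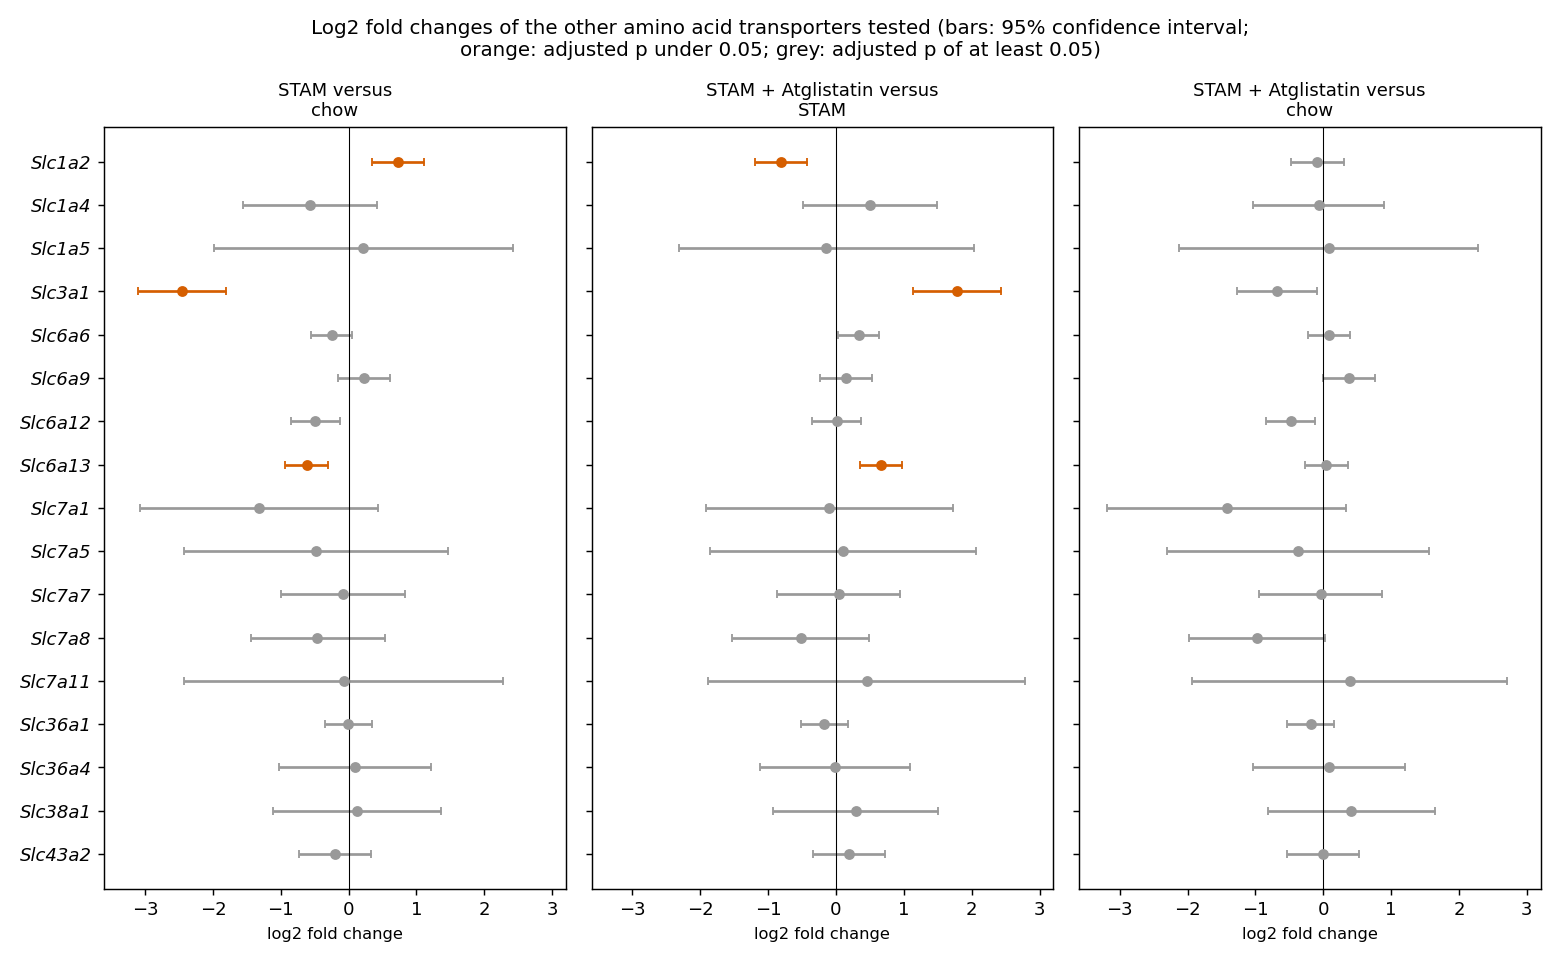
Log2 fold changes (x axis) of the 17 other amino acid carriers tested, with 95% confidence intervals, in 3 comparisons. Orange points passed (edgeR adjusted p under 0.05) and grey points did not: Slc1a2, Slc3a1 and Slc6a13 lie at 0.73, -2.46 and -0.62 in STAM against chow and at -0.81, 1.78 and 0.67 in STAM + Atglistatin against STAM.

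Enzymes that use the carried amino acids were read from 3 lists. Over all genes tested, 3.94% passed in STAM against chow, 1.79% in STAM + Atglistatin against STAM and 4.08% in STAM + Atglistatin against chow. In the same order, 1841, 1285 and 1878 of all 12660 genes stood at an unadjusted p under 0.05. Without chow replicate 7, 724, 332 and 757 of 13078 genes passed, again in that order. Of 15 genes of arginine, ornithine and the urea cycle tested, 2 rose (Oat and Asl) and 1 fell (Gamt) in STAM against chow, with a median log2 fold change of -0.21. Oat, ornithine aminotransferase of pericentral hepatocytes, had CPM of 274, 249 and 382 in STAM + Atglistatin, 630, 513 and 556 in STAM and 224, 330 and 273 in chow livers, with every STAM library above all others. It rose by 1.04 ± 0.17 in STAM against chow (edgeR adjusted p = 0.000821), and its log2 fold change in STAM + Atglistatin against STAM was -0.91 ± 0.16 (edgeR adjusted p = 0.00421). Both calls held under all 15 alternatives, with adjusted p up to 0.00885 and up to 0.0494.

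Summed pericentral markers (9 of 9 detected, Slc1a2 and Oat among them) were 6530 to 6710 CPM in STAM + Atglistatin, 5640 to 7140 CPM in STAM and 3790 to 7200 CPM in chow libraries, and the 3 ranges overlapped. The low end in chow was replicate 7, which was also the lowest chow library for Slc1a2 and Oat, while replicates 8 and 9 were at 7200 and 6190 CPM. Summed periportal markers (7 of 7) were 4050 to 4430, 5700 to 5820 and 4670 to 6410 CPM in the same groups, so that every STAM + Atglistatin library lay below every STAM and chow library. The part of zonation in the carrier values was not tested.

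Asl, argininosuccinate lyase, rose by 0.65 ± 0.14 in STAM against chow (396 ± 79.3 CPM in STAM and 252 ± 35.8 CPM in chow, edgeR adjusted p = 0.0126, 8.94e-05 to 0.0886 over 15 alternatives), a call lost without STAM replicate 3. Gamt, which makes creatine from an arginine product, fell by 0.74 ± 0.17 on the log2 scale (edgeR adjusted p = 0.0190), lost without STAM replicate 1 or 2 or chow replicate 8 or 9 (adjusted p 0.0594 to 0.130; 3.29e-05 at the lowest of 15 alternatives). Of the 15, 1 (Oat) was lower and 0 were higher in STAM + Atglistatin against STAM, with a median of 0.02. Against chow, STAM + Atglistatin livers had 1 lower, Cps1, the entry enzyme of the urea cycle (-0.48 ± 0.13, edgeR adjusted p = 0.0487), with a list median of -0.17; the Cps1 call was lost in 10 of 15 alternatives (adjusted p 0.00511 to 0.242), among them leaving out STAM + Atglistatin replicate 4 or 5, any STAM replicate, or chow replicate 8 or 9. Arginase, Arg1, did not pass with all libraries in edgeR but did without chow replicate 7: -0.61 ± 0.13 in STAM against chow and -0.53 ± 0.13 in STAM + Atglistatin against chow (edgeR adjusted p = 0.00449 and 0.0136). Without that library the list counts were 2 higher and 2 lower in STAM against chow, 0 and 1 in STAM + Atglistatin against STAM, and 0 and 2 in STAM + Atglistatin against chow. With all libraries, DESeq2 and limma-voom also gave 2 higher and 2 lower each in STAM against chow. In STAM + Atglistatin against chow, DESeq2 gave 0 and 1 and limma-voom 0 and 2.

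Of 10 glutamine, glutamate and alanine enzymes, 1 rose in STAM against chow (median 0.13) and 1 fell in STAM + Atglistatin against STAM (median -0.23), and both were Got1, the cytosolic aspartate aminotransferase. In STAM against chow limma-voom gave 1 higher and 1 lower. Got1 had CPM of 214, 176 and 203 in STAM + Atglistatin, 292, 313 and 287 in STAM and 237, 154 and 209 in chow livers, with log2 fold changes of 0.57 ± 0.14 and -0.59 ± 0.14 (edgeR adjusted p = 0.0310 and 0.0446). The first was lost without any 1 STAM replicate or chow replicate 8 or 9 (adjusted p 0.0704 to 0.164), and the second without any 1 of the STAM + Atglistatin or STAM replicates or chow replicate 9 (0.0558 to 0.231) or with library totals (0.0705; lowest of 15 alternatives 0.00152 and 0.00140). Between STAM + Atglistatin and chow 0 of 10 passed with edgeR, DESeq2 or limma-voom, 1 was lower at an unadjusted p under 0.05, and the median was -0.13. Without chow replicate 7, Glul, the glutamine synthetase of pericentral cells, also passed, at -0.52 ± 0.12 in STAM + Atglistatin against STAM and -0.50 ± 0.13 in STAM + Atglistatin against chow (edgeR adjusted p = 0.0122 and 0.0210).

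Of 11 enzymes of aromatic amino acid breakdown, 1 fell in STAM against chow (median 0.17): Haao, of the tryptophan route, at 306 ± 37.2 CPM in STAM and 466 ± 65.2 CPM in chow (-0.60 ± 0.14, edgeR adjusted p = 0.0140), lost without STAM replicate 1 or 2 or chow replicate 8 or 9 (adjusted p 0.0560 to 0.108; 0.000449 at the lowest of 15 alternatives). In STAM against chow 1 of the 11 fell with DESeq2 and 2 with limma-voom. With Atglistatin against STAM alone 0 of 11 passed with edgeR, DESeq2 or limma-voom, and 1 was lower at an unadjusted p under 0.05 (median -0.10). Against chow 0 of 11 passed in STAM + Atglistatin with edgeR or DESeq2, 2 fell with limma-voom and 3 were lower at an unadjusted p under 0.05 (median 0.01). Without chow replicate 7, Tat, tyrosine aminotransferase, was lower in both comparisons with chow (-1.47 ± 0.35 in STAM and -1.57 ± 0.35 in STAM + Atglistatin, edgeR adjusted p = 0.0131 and 0.00795).

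**Figure D4:**
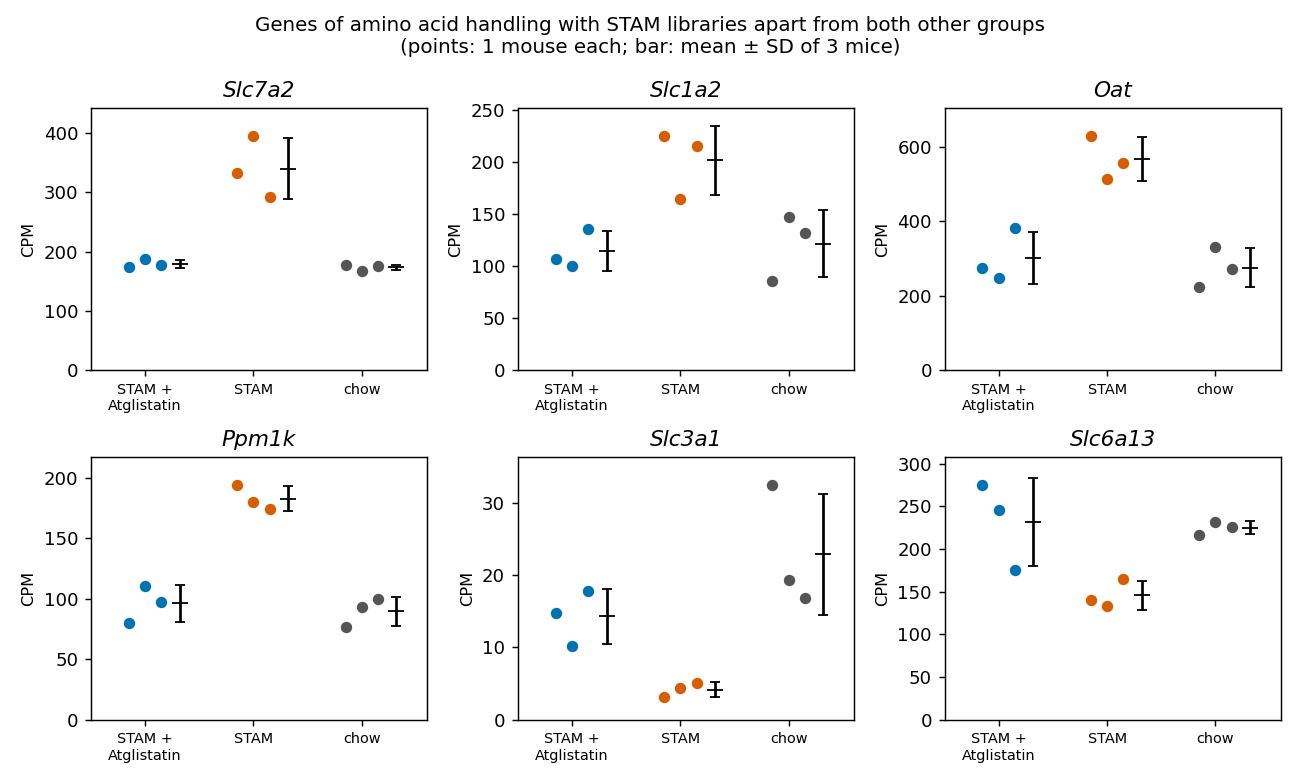
CPM, scaled counts (y axis, from 0) of Slc7a2, Slc1a2, Oat, Ppm1k, Slc3a1 and Slc6a13 in STAM + Atglistatin, STAM and chow livers. Points are single mice and the bar is the mean ± SD of 3. The genes are shown because their STAM libraries lay apart from both other groups, so the shared shape is no result. STAM lies above both other groups for the first 4 genes (Ppm1k at 174 to 194 CPM) and below them for Slc3a1 (3.10 to 5.05 CPM) and Slc6a13 (133 to 165 CPM).

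The transcription factor ATF4 switches on a set of genes when amino acids are scarce. Of 23 tested, 0 rose and 1 fell in STAM against chow, a share near the 3.94% of all genes, with a median of -0.28: Cars, the cysteine tRNA synthetase gene, at 14.0 ± 1.71 CPM in STAM and 25.9 ± 3.18 CPM in chow (-0.89 ± 0.19, edgeR adjusted p = 0.00947). The Cars call was lost without STAM replicate 2 (adjusted p = 0.0627) or chow replicate 9 (0.0504, with 0.00142 at the lowest of 15 alternatives). In STAM against chow, 1 of the list was higher and 5 were lower at an unadjusted edgeR p under 0.05. With DESeq2, 1 passed as higher and 1 as lower there, and with limma-voom 0 and 1. Of the 23, 0 passed in STAM + Atglistatin against STAM with edgeR, DESeq2 or limma-voom, with 1 higher and 1 lower at an unadjusted p under 0.05 (median -0.10). Against chow, 0 of 23 passed in STAM + Atglistatin with any of the 3 tools, with 1 higher and 9 lower at an unadjusted p under 0.05 (median -0.40). Over all 12660 genes, 1841 stood at such a p in STAM against chow, 1285 in STAM + Atglistatin against STAM and 1878 in STAM + Atglistatin against chow. Of the 9 lower in STAM + Atglistatin against chow, Pck2, Cars and Sars lay below every chow library. Trib3, Atf3, Mthfd2, Nupr1, Iars and Nars overlapped the chow libraries. Chow libraries varied widely for Atf3 (15.5 ± 24.1 CPM), Nupr1 (8.03 ± 11.1 CPM), Trib3 (17.9 ± 16.1 CPM) and Mthfd2 (6.65 ± 5.91 CPM). Atf4 itself had CPM of 140, 167 and 143 in STAM + Atglistatin, 133, 117 and 123 in STAM and 222, 125 and 126 in chow livers, with chow replicate 7 the highest, as for Slc3a2. Without chow replicate 7 the STAM against chow count was 2 higher (Atf3 and Chac1) and 1 lower (Cars). Of all 13078 genes tested without that library, 724 passed in STAM against chow and 332 in STAM + Atglistatin against STAM. The sign of Atf3 turned on that library: its log2 fold change was 2.21 without it (edgeR adjusted p = 0.0227) and -1.07 with all libraries (edgeR adjusted p = 0.620). Also without it, 1 of the list was lower in STAM + Atglistatin against STAM (Trib3).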

How the data were processed

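Raw counts per gene for each of the 9 libraries were deposited by the authors in 1 table, together with their sums per group. Per the submitters' processing notes, reads were aligned with STAR to GRCm38; the STAR version, counter, annotation, strand setting and treatment of multimapped reads were not given in the sources used here. Further deposited columns are log2 fold changes computed by the authors, their standard errors (treated as a score) and p-values by the authors, and none of these is reported. The 7 ribosomal RNA entries (0.260 to 0.529% of counts) were left out.

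The test was edgeR 4.0.16 (R 4.3.3) on the raw counts: genes kept by filterByExpr, libraries scaled by TMM, 1 model of all 9 libraries with a mean per group, and quasi-likelihood tests with Benjamini-Hochberg adjustment over 12660 genes. Confidence intervals (95%) used the same fit. The members and gene lists were chosen with earlier results of these data known. Named genes were the 7 transporters, up to 4 passing genes of each list per comparison with the smallest adjusted p, and the genes with the highest correlation of log2 CPM (prior count 2) with each transporter, 5 for Slc7a2 and 3 for the others. Slc38a1, Slc7a1, Slc7a5, Slc7a8, Atf4, Arg1, Glul, Tat, Atf3, Chac1, Trib3, Slc7a11, Nupr1, Mthfd2, Pck2, Iars, Nars and Sars were added after their values were seen. Of the genes so chosen by correlation, 1 is not reported here. DESeq2 1.42.0, limma-voom (limma 3.58.1), other scalings, no low-count filter, a fit to the 2 groups compared and leaving out each library were the alternatives. The fit was tested on simulated data. Positions are from GENCODE M21 (GRCm38) and promoters from RefSeq (GRCm38.p6).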

Additional observations from a re-analysis of the deposited data

How the results depend on the processing

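No paired analysis was possible because the groups share no replicate numbers. The number of genes passing was 499 in STAM against chow (247 higher and 252 lower), 226 in STAM + Atglistatin against STAM and 516 in STAM + Atglistatin against chow (266 higher and 250 lower); leaving out 1 library gave 291 to 724, 131 to 332 and 309 to 757. With library totals in place of TMM the splits were 347 higher and 205 lower in STAM against chow and 359 higher and 184 lower in STAM + Atglistatin against chow. With no low-count filter 392 passed in STAM + Atglistatin against STAM. Of the 6 transporters tested, 0 passed in the main analysis; with no low-count filter 1 passed in STAM against chow (Slc3a2) and 1 in STAM + Atglistatin against chow (Slc38a2), with limma-voom 1 in STAM against chow (Slc38a3), and leaving out 1 library gave 0 to 1 in both comparisons with chow, the 1 being without chow replicate 7. Among the transporters, signs turned for differences that did not pass. Leaving out 1 library gave -0.37 to 0.21 for Slc38a2, -0.07 to 0.09 for Slc38a4 (-0.01 without chow replicate 7) and -0.18 to 0.15 for Slc16a10 in STAM against chow, -0.04 to 0.19 for Slc38a3 and -0.06 to 0.17 for Slc16a10 in STAM + Atglistatin against STAM, and -0.39 to 0.18 for Slc3a2 and -0.14 to 0.19 for Slc16a10 in STAM + Atglistatin against chow. For Slc16a10, library totals gave 0.10, and DESeq2 size factors or only the 2 groups compared 0.00, in STAM against chow, and limma-voom gave -0.03 in STAM + Atglistatin against STAM and -0.05 in STAM + Atglistatin against chow. The cause of these turns was not tested. Depth limits Slc43a1, with 12, 56 and 41 counts over the STAM + Atglistatin, STAM and chow libraries.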
